A study of Mus musculus with 6 samples.

Results

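Transcript levels of the wild-type mouse liver on day 3 of life are described here from 3 arrays, all wild-type arrays among the 6 of the series. The other 3 arrays carried livers of Cugbp1 knockout mice (the gene, today Celf1, encodes a protein that binds RNA) and are not used here. Each wild-type array held Cy3-labelled total RNA of wild-type mouse liver tissue at 3 days of age. The labels name no strain, litter, diet or time of day, and nothing says how many animals stand behind an array. The spread over the 3 arrays is therefore the spread between these samples, and it can hold both technical and animal differences.

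The newborn liver does several jobs in the same days. It still holds blood-forming cells that moved in before birth, chiefly erythroblasts and neutrophil precursors, while its hepatocytes already secrete most plasma proteins. At birth the supply of glucose through the placenta ends, and hepatocytes turn to milk fat, fatty acid oxidation, ketone bodies and their own glucose output. Genes for adult drug, steroid and bile acid metabolism are known to come on over the following weeks, and fetal genes such as Afp are switched off over the same period.

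The deposited signal of each probe was divided by the 75th percentile of its array and put on the log2 scale, so that a log2 signal of 0 is that percentile and 1 unit is a 2-fold difference. Values given in threes below are log2 signals on wild-type 1, 2 and 3. Each gene was represented by its brightest probe, which gave 29839 named genes from 38457 named probes, and genes were ranked by the mean of the 3 arrays. The 75th percentile was a signal of 410.5, 443.9 and 396.8 on the 3 arrays. Probe brightness also depends on the probe's own sequence and copy number of its target, so ranks are ranks of signal, and 2 genes close in rank cannot be ordered by transcript number. The detection level was set at the 30th percentile of each array's probes, which was log2 -6.01, -5.91 and -6.10, and a gene that exceeded it on no array was called undetected. Of all named genes, 5764 were undetected, which is 19.3%. The number of arrays limits the precision of every value. All 100 of the brightest named genes lay above the largest value that a single 16-bit scan can hold (log2 7.32, 7.21 and 7.37), as did 354 named genes on all 3 arrays. How the deposited signals past that value were obtained is not stated, so levels and spreads near the top of the scale depend on an unknown step.

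The tissue label was checked against its markers. Alb, the main plasma protein and a hepatocyte marker, was the brightest named gene, at log2 10.24, 10.44 and 10.58. Afp, the fetal albumin-like carrier, stood at rank 16 with log2 9.76, 9.86 and 9.80. Apoa1, the main protein of high-density lipoprotein, gave log2 7.86, 7.94 and 7.87 at rank 269, and Hbb-b1, an adult beta globin of red cells, gave log2 10.05, 10.24 and 10.24 at rank 3. All 4 markers were bright on every array, with ranges between 0.08 and 0.34 log2 units.

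Wild-type 2 and wild-type 3 did not match the only statement on sex in the protocol, which speaks of male knockout mice and is attached to every sample. Xist, the RNA that silences an X chromosome in female cells, was at log2 -7.00, 1.29 and 2.06, so that it was bright on wild-type 2 and 3 alone. Eif2s3y, a Y-linked translation factor gene, was at log2 2.98, -7.11 and -7.03, and Ddx3y, a Y-linked helicase gene, was at log2 1.90, -7.05 and -6.88. On wild-type 1 both Y-linked genes were above the detection level, and on wild-type 2 and 3 both lay at the floor of the signal. Kdm5d was at log2 -4.62, -7.14 and -7.02 and Uty at log2 -2.95, -7.02 and -6.79, with the same array high. Usp9y, Zfy1 and Zfy2 were undetected, and Tsix, antisense to Xist, gave log2 -3.90, -4.76 and -4.78. With wild-type 1 taken alone, 94 of its 100 brightest named genes were among the 100 brightest by the mean of the 3 arrays. Wild-type 1 is itself part of that mean, so this overlap cannot show whether sex affects the ranking.

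Wild-type 3 stood apart from both other arrays in transcripts of striated muscle. The 30 skeletal muscle genes on the array had a summed signal of 296 times the 75th percentile on wild-type 3, 9.27 times on wild-type 1 and 8.63 times on wild-type 2. Myh8, the perinatal myosin heavy chain, was at log2 -4.56, -3.16 and 5.57. Over named genes the Pearson correlation of log2 signals was 0.984 between wild-type 1 and 2, 0.973 between wild-type 1 and 3, and 0.972 between wild-type 2 and 3. These correlations run across genes of shared probes and are given as a description. For some lists, counts past a 2-fold range and differences of wild-type 1 and 2 are therefore also given without wild-type 3.

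Among the genes that the results turn on, the promoters of 3 of the brightest and 1 of the dimmest liver genes are shown, as the 250 bases before the transcript start on the gene's strand, from RefSeq on build GRCm38.p6. Alb lies at chr5:90460620-90460869 on the plus strand, Afp, its neighbour on that chromosome, at chr5:90490464-90490713 on the plus strand, Hba-a1 (an adult alpha globin) at chr11:32283422-32283671 on the plus strand, and Serpina12 (a serine protease inhibitor) at chr12:104044444-104044693 on the minus strand. Capitals mark 3 motifs searched on both strands: GTTAAT or ATTAAC, part of the site of the hepatocyte factor HNF1; CCAAT or ATTGG; and TATAAA or TTTATA.
Alb: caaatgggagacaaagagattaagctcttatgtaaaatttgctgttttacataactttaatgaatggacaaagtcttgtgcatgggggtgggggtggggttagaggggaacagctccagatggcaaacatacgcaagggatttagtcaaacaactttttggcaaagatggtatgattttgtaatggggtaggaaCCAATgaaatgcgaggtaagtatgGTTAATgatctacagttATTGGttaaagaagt
Afp: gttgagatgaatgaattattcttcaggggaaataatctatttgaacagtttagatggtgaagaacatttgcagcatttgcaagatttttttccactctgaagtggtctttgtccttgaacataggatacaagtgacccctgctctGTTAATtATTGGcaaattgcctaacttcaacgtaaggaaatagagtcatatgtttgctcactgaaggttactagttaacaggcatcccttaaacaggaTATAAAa
Hba-a1: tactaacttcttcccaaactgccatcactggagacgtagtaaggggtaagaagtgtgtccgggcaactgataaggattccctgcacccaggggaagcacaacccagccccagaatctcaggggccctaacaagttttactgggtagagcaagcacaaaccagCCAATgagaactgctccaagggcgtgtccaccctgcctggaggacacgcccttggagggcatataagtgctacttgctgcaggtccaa
Serpina12: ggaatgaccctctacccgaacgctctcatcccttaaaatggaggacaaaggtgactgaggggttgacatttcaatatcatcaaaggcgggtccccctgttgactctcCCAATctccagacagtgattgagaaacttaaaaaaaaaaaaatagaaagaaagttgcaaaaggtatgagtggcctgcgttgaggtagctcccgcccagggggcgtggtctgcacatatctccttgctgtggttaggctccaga
The windows of Alb and Afp each held GTTAAT once, and those of Hba-a1 and Serpina12 did not hold it on either strand. CCAAT or its complement was found in all 4 windows, with 2 in the Alb window, and TATAAA only in the Afp window. Among 32851 promoter windows of the same length, 6.43% held GTTAAT, 33.8% CCAAT and 12.4% TATAAA on either strand. A match is a run of letters, not a site shown to be bound, and the absence of one says only that these letters are not in this window.

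The brightest signals of the day 3 liver belonged to plasma proteins and adult globins. Among the 20 brightest named genes, 11 were plasma carriers and protease inhibitors, apolipoproteins, clotting factors or complement, 3 were globins, and 2 were the fetal genes Afp and H19. The 4 at the top were Alb, Hba-a1 (log2 10.31, 10.42 and 10.52), Hbb-b1 and Hba-a2 (log2 10.01, 10.08 and 10.21). Ahsg, a carrier of calcium phosphate in fetal plasma, followed at log2 10.13, 10.02 and 10.13. Serpina1c, an alpha-1 antitrypsin, gave log2 10.09, 9.96 and 10.16, and Trf, the iron carrier transferrin, gave log2 9.94, 10.08 and 10.04. The alpha-1 antitrypsin genes and the 2 alpha globins are near-identical copies, so their probes may share signal.

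**Figure D1:**
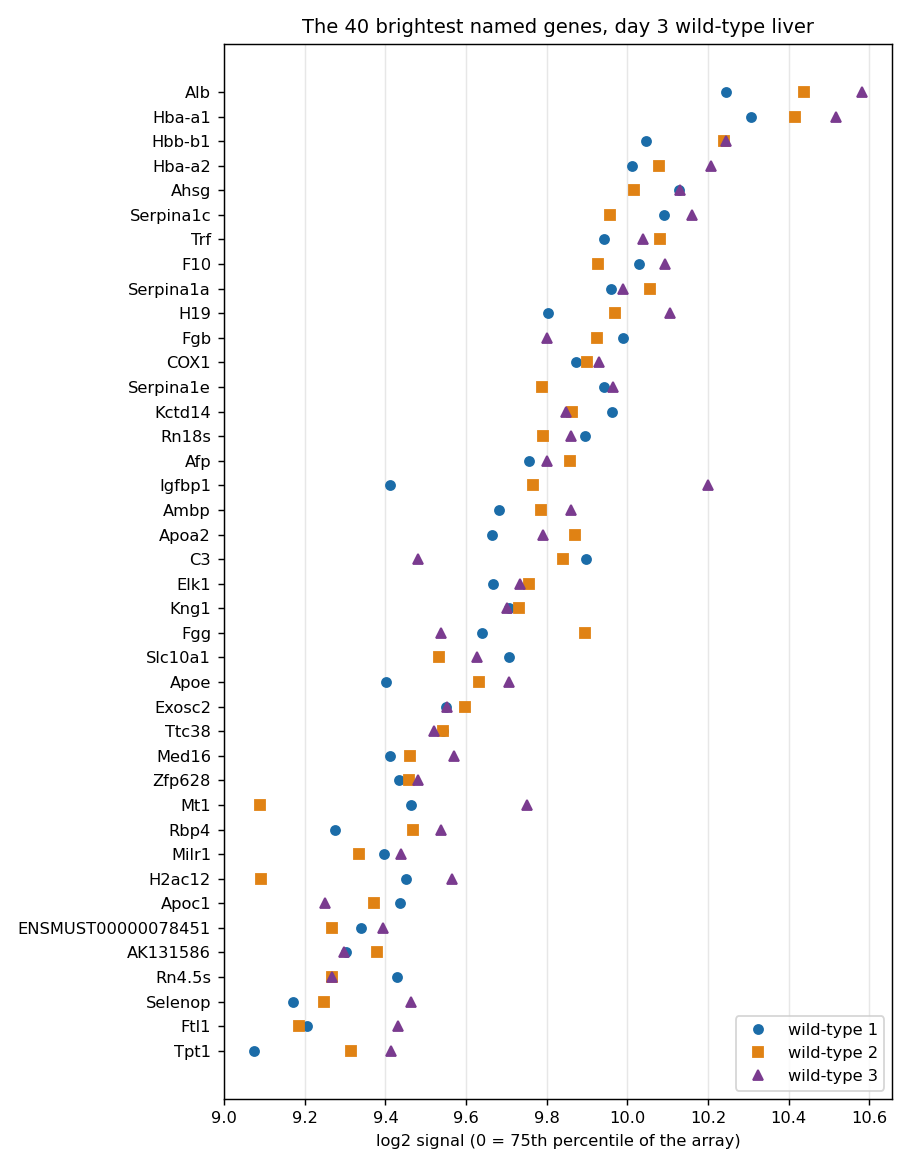
The 40 brightest named genes, from Alb at the top down, with the log2 signal of wild-type 1 (circles), wild-type 2 (squares) and wild-type 3 (triangles), where 0 is the 75th percentile of each array. Most genes lie within 0.4 log2 units over the 3 arrays, while Igfbp1 runs between 9.41 and 10.20 and Mt1 between 9.09 and 9.75.

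Igfbp1 and Mt1 had the widest spread among the 40 brightest genes. Igfbp1, a carrier of insulin-like growth factors that insulin represses, was at log2 9.41, 9.77 and 10.20, highest on wild-type 3. Mt1, a metal-binding metallothionein, was at log2 9.46, 9.09 and 9.75, lowest on wild-type 2, although its other probe had a mean of only 3.12. H19, an imprinted fetal RNA, was at log2 9.80, 9.97 and 10.11 by 1 probe and at a mean of -0.74 by another.

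Of the 100 brightest named genes, 22 belonged to the secreted protein lists, 12 were cytosolic ribosomal proteins, 7 histones, 4 globins and 3 glycolytic enzymes. Another 38 were on none of the 51 lists, and 17 of these were accessions, gene models or pseudogenes. The other 21 carried a gene symbol, and for 14 of the 15 with several probes the next probe was dimmer by over 2 log2 units. Elk1, a transcription factor gene, gave log2 9.67, 9.76 and 9.73 by 1 probe and a mean of -3.78 by the other. Kctd14 gave log2 9.96, 9.86 and 9.85 against a mean of -0.15 for its next probe, and Zfp628 gave 9.43, 9.46 and 9.48 against -0.02. Among listed genes of the top 100 such a gap was found for 9 of 24 with several probes, among them F10, Slc10a1 and H19, and over all named genes with several probes for 46.9%. With each gene represented by its median probe, 65 of the 100 brightest genes were shared.

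Plasma carriers and inhibitors had the highest median percentile among the lists described, at 99.3 over 31 genes. In it 13 genes were among the 100 brightest, and Ambp, the precursor of alpha-1 microglobulin, gave log2 9.68, 9.79 and 9.86. Its lowest members were Agt, the precursor of angiotensin, at log2 3.65, 4.18 and 4.81; the murinoglobulins Mug1 and Mug2, broad protease inhibitors, at means of 2.02 and 1.61; and Serpina6, the carrier of glucocorticoids, at log2 0.13, -0.06 and -2.88. Mug1 (log2 3.25, 0.33 and 2.48) and Mug2 (log2 3.15, 0.04 and 1.63) were low on wild-type 2, whereas Serpina6 was low on wild-type 3.

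Apolipoproteins followed, with a median percentile of 98.2 over 16 genes. Apoa2 stood at log2 9.66, 9.87 and 9.79, Apoe, the ligand for remnant uptake, at log2 9.40, 9.63 and 9.71, Apoc1 at log2 9.44, 9.37 and 9.25, and Apoh at log2 8.95, 8.89 and 8.84. These top members differed by at most 0.30 log2 units between arrays. Past a 2-fold range were 6 of the 16, beside 5252 of 20969 named genes above the detection level on all 3 arrays. Over wild-type 1 and 2 alone, 3 of the 16 were, beside 1772 of 21467 named genes. The widest ranges over the 3 arrays were those of low members. Apoa4, made by gut and liver in fat absorption and fasting, was at log2 -1.04, 3.31 and 3.04 and thus low on wild-type 1, and Apoa5, a regulator of plasma triglyceride, was at log2 1.94, 4.29 and -0.09 and thus high on wild-type 2. Apoc3, an inhibitor of triglyceride clearance, was at log2 6.21, 7.72 and 8.31, with another probe at a mean of 0.01.

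Clotting factors had a median percentile of 97.5 over 19 genes, and every one was above the detection level on all 3 arrays. F10 led at log2 10.03, 9.93 and 10.09, although its next probe had a mean of 7.29. The fibrinogen chains Fgb (log2 9.99, 9.93 and 9.80) and Fgg (log2 9.64, 9.90 and 9.54) and the thrombin inhibitor gene Serpinc1 (log2 8.84, 8.63 and 8.81) came next. The vitamin K-dependent F9, F7 and Pros1 were among the lowest, with log2 1.71, 1.37 and 1.65 for F9, log2 2.36, 2.11 and 1.92 for F7 and log2 0.61, 1.52 and 0.41 for Pros1. Even these lay above the 75th percentile of their arrays.

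Complement genes had a median percentile of 93.9 over 20 genes and reached further down. C3, the central component, was at log2 9.90, 9.84 and 9.48 and C4b at log2 7.43, 7.69 and 6.90. At the other end stood C6 (log2 -2.27, -1.43 and -2.17) and C9 (log2 -1.64, -4.40 and -6.89), components of the membrane attack complex. C9 was under the detection level on wild-type 3 only. Acute-phase genes ran from Hp, haptoglobin, at log2 9.14, 9.51 and 8.73 to the serum amyloid gene Saa2 at log2 0.12, -1.79 and -2.79 and Orm3, an orosomucoid gene, at log2 -6.98, -7.14 and -6.96. Their median percentile was 84.4 over 18 genes.

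Major urinary proteins, which dominate the output of the adult male liver, were dim. Their 8 genes had a median percentile of 37.5, and the brightest, Mup2, was at log2 -1.33, -1.07 and -1.56. Mup6 lay under the detection level on every array, at log2 -6.80, -6.99 and -6.80. Genes of this cluster are close copies of each other, and the probes may share or split their signal.

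Adult globins were bright and embryonic globins dim. Hbb-b2, the minor adult beta globin, gave log2 9.21, 8.87 and 9.04. The embryonic genes Hbb-y (log2 0.12, -0.29 and 0.13), Hbb-bh1 (log2 -0.56, -1.30 and -1.71) and Hba-x (log2 -2.13, -3.03 and -3.18) lay far lower on every array. The other 37 erythroblast genes had a median percentile of 91.1. Ahsp, the chaperone of alpha globin, was at log2 7.78, 7.77 and 7.78, and Alas2, the first enzyme of heme synthesis in red cells, was at log2 6.84, 6.81 and 6.83. Both were nearly equal on the 3 arrays. In whole liver, fewer cells of a type and less RNA per cell cannot be told apart.

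Genes of neutrophil precursors were the brightest of the non-erythroid blood lists, with a median percentile of 94.9 over 26 genes. S100a9, a calcium-binding protein of neutrophils, was at log2 9.16, 9.02 and 9.35, and its partner S100a8 had a mean of log2 8.16 with a range of 0.43, highest on wild-type 3. The stefin gene Stfa1 gave log2 8.27, 8.16 and 8.25. Mmp9, a protease of late granules, was lowest at log2 -0.42, -0.61 and -0.11. Macrophage genes had a median percentile of 85.6 over 25 genes, between Marco, a scavenger receptor, at log2 5.38, 6.13 and 6.76 and Cd163, the receptor for haptoglobin complexes, at log2 -6.81, -5.27 and -5.30. Megakaryocyte genes had a median percentile of 76.1 over 20 genes, led by the platelet chemokine gene Pf4 at log2 6.28, 6.40 and 6.64.

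Lymphoid genes were dimmer, with a median percentile of 60.3 over 25 genes. The precursor B cell gene Vpreb3 was at log2 4.35, 3.97 and 3.40, and Vpreb1 was at log2 3.40, 3.02 and 0.14. Cd8a, the co-receptor of cytotoxic T cells, was at log2 -4.94, -4.64 and -5.49, and Ncr1, a natural killer cell receptor gene, at log2 -6.72, -5.39 and -5.41. Cd4 led the list at log2 5.84, 5.93 and 5.51, but its next probe had a mean of only -3.50. Vpreb1, Vpreb2 (log2 0.65, 0.32 and -2.92) and Igll1 (log2 0.31, 0.46 and -2.60), which together mark B cell progenitors, were all low on wild-type 3.

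Endothelial genes had a median percentile of 79.5 over 25 genes, stellate cell and fibroblast genes 83.4 over 30, and bile duct genes 66.3 over 23. Stab2, a scavenger receptor of sinusoids, was at log2 3.89, 4.42 and 4.99, and Dcn, a matrix proteoglycan, at log2 5.25, 5.76 and 6.73. The keratin gene Krt18 led the bile duct list at log2 7.06, 6.97 and 8.14. Keratin genes of this list differed widely, with a mean of 5.74 for Krt8 and 0.16 for Krt19. Spp1, osteopontin, was at log2 -1.02, 0.53 and 1.06, and the chloride channel gene Cftr at log2 -6.28, -7.14 and -6.74. Exocrine pancreas genes had a median percentile of 40.1 over 24 genes. They were led by the amylase gene Amy2a5 at log2 2.79, 4.13 and 4.46, while the lipase gene Pnlip was at log2 -5.91, -7.10 and -6.93. Gut and skin genes had 36.4 over 21, although Fabp1, a fatty acid carrier shared by liver and gut, was at log2 8.60, 8.40 and 7.95.

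**Figure D2:**
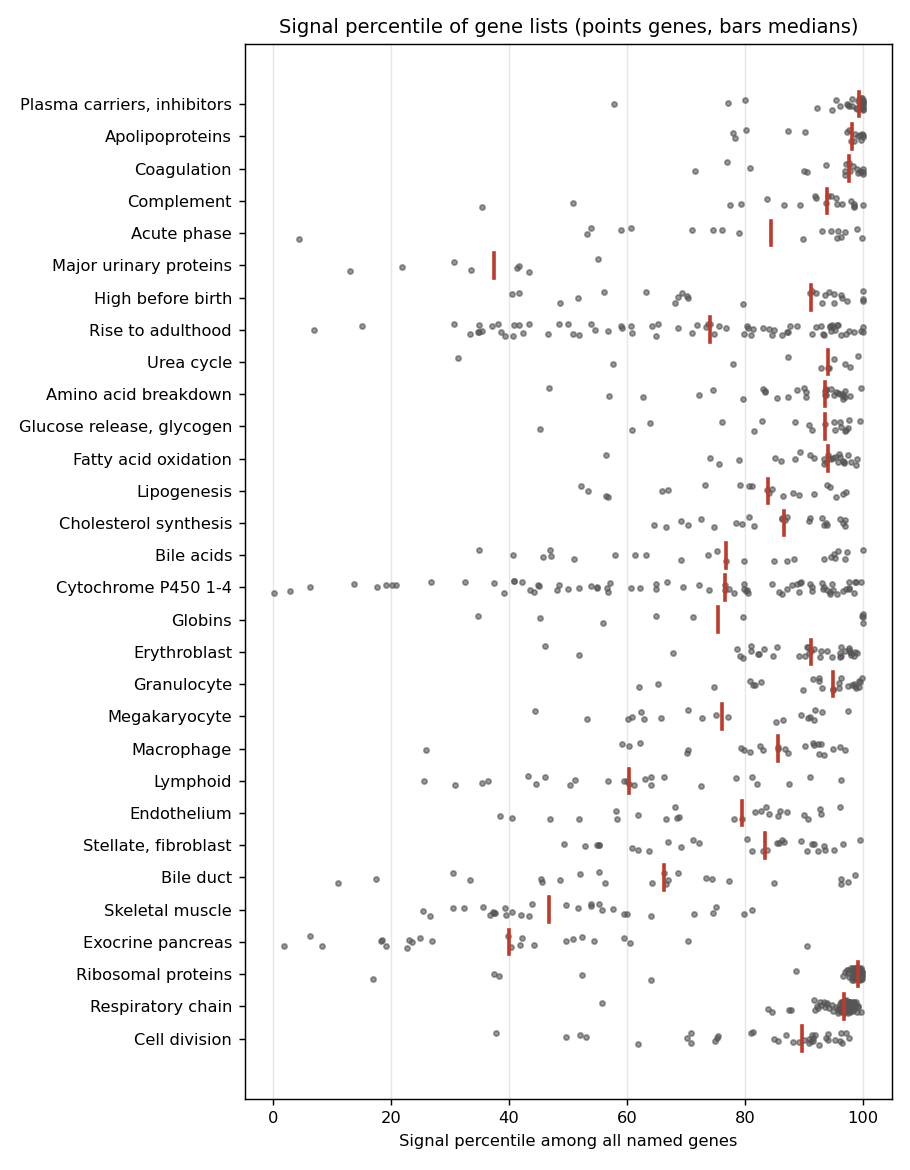
Signal percentile among all named genes (100 is the brightest) for the members of 30 gene lists; each point is a gene by its mean over the 3 arrays and each bar a list's median. Plasma carriers (99.3) and ribosomal proteins (99.1) are packed at the right edge, while genes that rise to adulthood (74.0) and cytochrome P450 genes (76.6) spread over the whole axis.

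Genes of protein synthesis and respiration formed the other bright block. The 85 cytosolic ribosomal protein genes had a median percentile of 99.1, with Rps12 at log2 9.03, 9.04 and 9.11. The 4 lowest were Rpl21, at log2 -1.92, -1.47 and -1.75, and the paralogs Rpl39l, Rpl3l and Rpl10l, which are known from testis or muscle. Signal of ribosomal protein genes can include that of their many pseudogenes. Nuclear genes of the respiratory chain had a median percentile of 96.8 over 78 genes, with Cox6a1 at log2 8.69, 8.91 and 9.04 and Atp5b, a subunit of ATP synthase, at log2 7.90, 8.11 and 8.18. Of 6 mitochondrial genome transcripts, COX1 was at log2 9.87, 9.90 and 9.93, ND3 at log2 7.96, 8.38 and 6.56 and ND1 at log2 4.88, 6.03 and 3.55. Apart from COX1, which was steady, these were lowest on wild-type 3.

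Genes of cell division were bright as well, with a median percentile of 89.6 over 36 genes. Mki67, a marker of cycling cells, was at log2 6.64, 6.30 and 6.76, and Birc5, an inhibitor of apoptosis made at mitosis, at log2 5.85, 5.54 and 6.09. The lowest was Ccne2, a cyclin of S phase entry, at log2 -3.63, -3.92 and -4.17. Histone genes ran from H2ac12 at log2 9.45, 9.09 and 9.56 to H2ab1 at log2 -6.80, -6.98 and -6.78, with a median percentile of 81.3 over 64 genes. The H2a histone genes are near-identical, so the 7 among the top 100 may share signal.

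Genes listed as high before birth had a median percentile of 91.2 over 26 genes. Besides Ahsg, H19 and Afp they were led by Cd24a, a surface protein of progenitor cells, at log2 6.36, 6.17 and 6.40. Hmga2, a chromatin protein of growing embryonic tissue, was at log2 -2.11, -1.66 and -1.73, Trim71, a target of the let-7 miRNA, at log2 -3.16, -2.67 and -4.11, and the imprinted gene Peg10 at log2 -3.26, -3.56 and -3.73. These low members lay near or below the middle of all named genes, with percentiles between 40.5 and 51.7.

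The 75 genes listed as rising between birth and adulthood covered nearly the whole range of signal. Their median percentile was 74.0, 20 were in the brightest 10% of named genes, and 19 were below the median named gene. Undetected were 2 of the 75, beside 19.3% of all named genes. These were Elovl3, a fatty acid elongase, at log2 -6.78, -6.97 and -6.70, and Serpina12, whose promoter is printed above, at log2 -6.92, -7.09 and -6.94. By the definition of undetected, both exceeded the detection level on no array.

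Already bright on day 3 were Serpina1e (log2 9.94, 9.79 and 9.96), Slc10a1, the bile salt uptake carrier (log2 9.71, 9.53 and 9.63, with its next probe at a mean of 3.54), Cyp2d26 (log2 8.77, 8.62 and 9.03) and Cyp2e1, which oxidises ethanol and acetone (log2 6.43, 7.82 and 7.51). At the other end, above the detection level on at least 1 array, were Mup3 (log2 -4.07, -4.11 and -6.98) and Cyp26a1, which breaks down retinoic acid (log2 -5.21, -4.42 and -4.22). A stricter level was taken from olfactory and vomeronasal receptor probes, genes with no known role in liver, whose 95th percentile was log2 -2.62, -2.74 and -2.70. By that level 11 of the 75 genes were dim on all 3 arrays, beside 42.0% of all named genes. Besides Elovl3, Serpina12, Mup3 and Cyp26a1 these included the uptake carriers Slco1a1 (log2 -3.87, -4.59 and -4.66), Slco1a4 (log2 -3.51, -3.52 and -3.42) and Slc22a7 (log2 -5.77, -3.94 and -3.48), the hepcidin paralog Hamp2 (log2 -3.64, -4.13 and -3.60), the succinate receptor gene Sucnr1 (log2 -5.43, -3.83 and -2.82) and Mup21 (log2 -2.69, -2.77 and -3.73). Hamp2 and Sucnr1 were chosen after their values were seen.

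Several dim members were dim on some arrays only. Cyp1a2, which oxidises caffeine and aryl amines, was at log2 -4.86, -0.08 and -5.43, and the related Cyp1a1 was at log2 -5.33, 3.61 and -6.73. Both were high on wild-type 2 alone. Cyp4a12a (log2 1.86, 0.07 and -3.56), Cyp4a12b (log2 2.35, 0.52 and -2.93) and Sult3a1 (log2 -1.75, -4.48 and -6.97), a sulfotransferase gene, were highest on wild-type 1 and lowest on wild-type 3. C9 followed the same order.

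**Figure D3:**
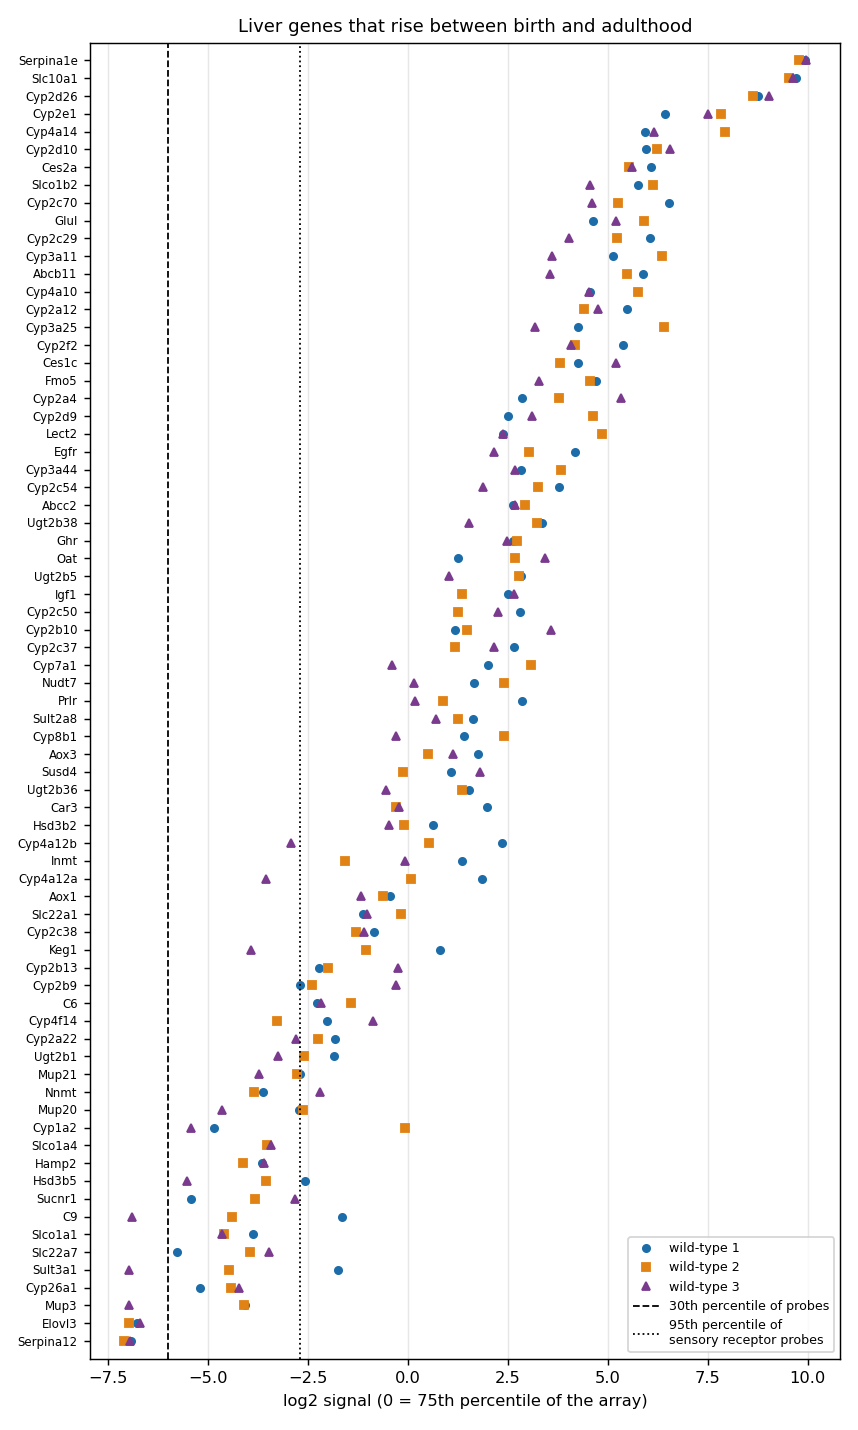
Log2 signal of 73 of the 75 liver genes listed as rising between birth and adulthood, sorted by mean, on wild-type 1 (circles), wild-type 2 (squares) and wild-type 3 (triangles). Vertical lines mark the mean over arrays of the detection level (dashed) and of the 95th percentile of sensory receptor probes (dotted); Elovl3 and Serpina12 lie left of both on every array.

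Metabolic classes differed in how many members were already bright. Urea cycle genes had a median percentile of 94.1 over 11 genes. Ass1 and Arg1, which make and split argininosuccinate and arginine in turn, were at log2 7.64, 8.11 and 7.84 and at log2 5.57, 6.95 and 5.88, while Slc25a2, a mitochondrial ornithine carrier, was at log2 -2.09, -6.68 and -6.03. Fatty acid oxidation genes also had 94.1, over 28 genes, and all of them were above the detection level. Acaa2, the last step of mitochondrial beta-oxidation, led at log2 8.03, 7.96 and 7.25. The hormone gene Fgf21 was lowest at log2 -0.86, -1.16 and -1.33.

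Genes of glucose release and glycogen had a median percentile of 93.6 over 19 genes. Fbp1, a gluconeogenic phosphatase, was at log2 8.43, 9.17 and 8.08. Pklr, liver pyruvate kinase, was at log2 0.54, 0.01 and -1.01. Amino acid breakdown genes had 93.6 over 32 genes. Bhmt, which remethylates homocysteine, led at log2 8.73, 9.22 and 8.09, and Tdo2, the first enzyme of tryptophan breakdown, was last at log2 -2.98, -2.69 and -1.98.

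Bile acid genes had a median percentile of 76.7 over 25 genes, cytochrome P450 genes of families 1 to 4 had 76.6 over 76, and conjugating enzymes 71.0 over 49. Cyp7a1, the rate-limiting enzyme of bile acid synthesis, was at log2 2.00, 3.07 and -0.41, and Cyp8b1, which makes cholic acid, at log2 1.40, 2.40 and -0.30. Both were lowest on wild-type 3. Nr0b2, a repressor of Cyp7a1, was also lowest there, at log2 -1.54, -0.75 and -5.27.

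The spread over the 3 arrays depended on the class of gene. Of 20969 named genes above the detection level on all 3 arrays, 5252 had a range past 2-fold, which is 25%. Over wild-type 1 and 2 alone it was 1772 of 21467, or 8.25%. Dim genes spread more: with these genes cut by signal into 4 equal bins, 34.8% of the dimmest bin were past 2-fold over the 3 arrays and 16.0% of the brightest.

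By the count past 2-fold, ribosomal protein, cell division and nuclear respiratory chain genes were the steadiest of the lists with at least 10 members above the detection level. None of 83 ribosomal protein genes above the detection level was past 2-fold, nor was any of 36 cell division genes, and 1 of 78 nuclear respiratory chain genes was, whereas 3 of 6 mitochondrial genome transcripts were. The median range of ribosomal protein genes was 0.37 log2 units, that of cell division genes 0.47 and that of plasma carriers 0.34, against 0.58 over all named genes. In the brightest of the 4 signal bins the median range was 0.47, so by this measure cell division genes were no steadier than bright genes in general. Coagulation (3 of 19), granulocyte (3 of 26) and erythroblast genes (5 of 37) were also below the share of all genes. Over wild-type 1 and 2 alone, 0 of 19 coagulation, 2 of 26 granulocyte and 0 of 37 erythroblast genes were past 2-fold, beside 8.25% of all genes. The granulocyte share there was close to that of all genes. The steadiest lists still shifted together by small steps. Of 83 ribosomal protein genes, 79 were lower on wild-type 1 than the mean of the other 2 arrays (median -0.22). So were 74 of 78 nuclear respiratory chain genes (median -0.28), beside 50.3% of all genes. Of 36 cell division genes, 29 were higher on wild-type 1 (median 0.21). On wild-type 3, 77 of the 83 ribosomal protein genes were higher than the mean of the other 2 arrays (median 0.31). The same held for 61 of 78 nuclear respiratory chain genes (median 0.17), beside 49.9% of all genes. The median log2 signal of the 85 ribosomal protein genes was 7.77, 7.88 and 8.15 on the 3 arrays.

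The widest classes were lipid synthesis, rapid-response and muscle genes. Past 2-fold over the 3 arrays were 22 of 24 cholesterol synthesis genes, 19 of 22 lipogenesis genes, 25 of 29 immediate early genes, 15 of 19 chemokine and cytokine genes, 19 of 26 glycolysis genes, and all 17 skeletal muscle genes above the detection level. Without wild-type 3 this held for 18 of 24 cholesterol synthesis genes and 14 of 22 lipogenesis genes. Under the same omission it held for 6 of 29 immediate early genes, 7 of 20 chemokine genes, 3 of 26 glycolysis genes and 4 of 18 muscle genes. The genes that rise to adulthood were past 2-fold for 52 of 70, and for 32 of 73 without wild-type 3.

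**Figure D4:**
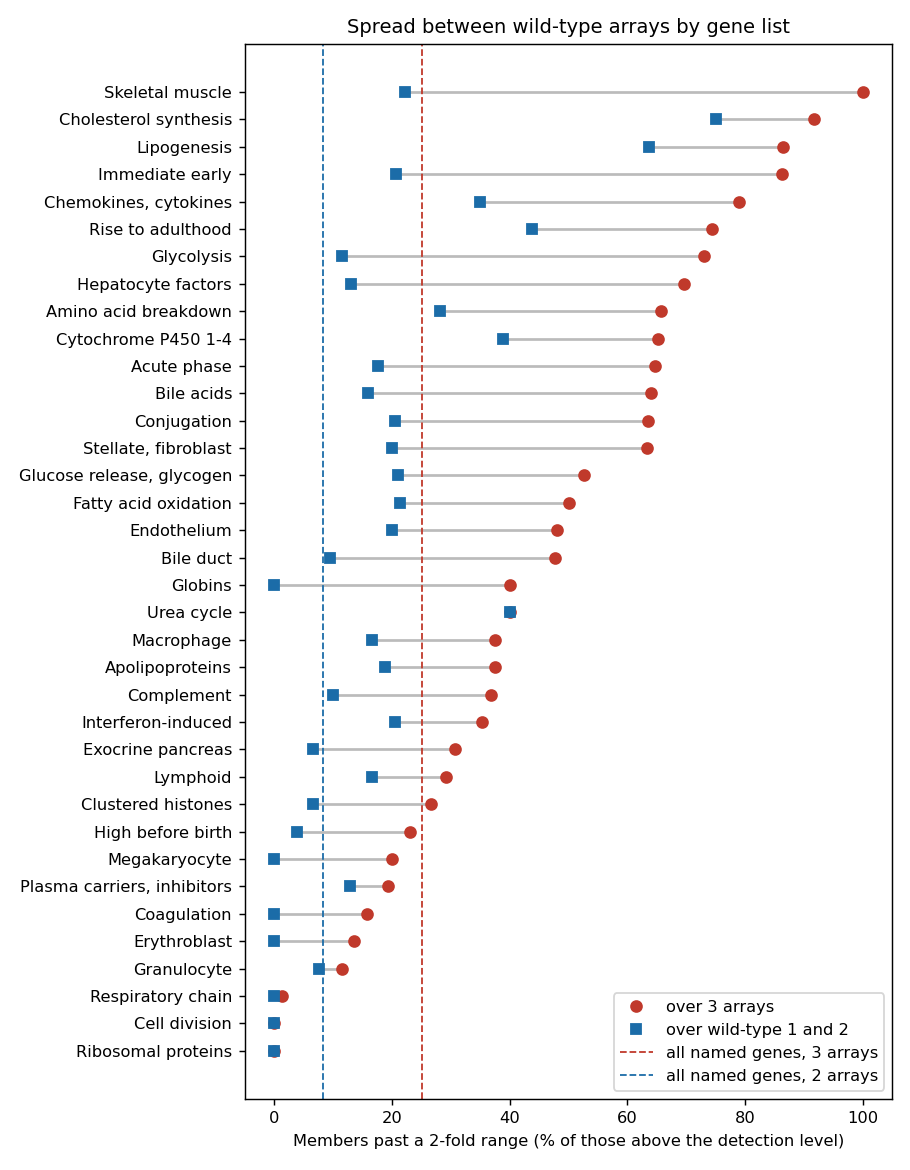
Percent of members past a 2-fold range, among members above the detection level, for the gene lists plotted, each with at least 10 such members: over the 3 wild-type arrays (circles) and over wild-type 1 and 2 alone (squares). Dashed lines give all named genes, 25% and 8.25%. Cholesterol synthesis and lipogenesis stay far right in both, whereas muscle, immediate early and glycolysis genes move left without wild-type 3.

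Cholesterol synthesis genes were high together on wild-type 1. All 24 were higher there than the mean of the other 2 arrays, by a median of 1.28 log2 units, and 20 were over 2-fold higher, while over all named genes 49.7% were higher and 3.24% over 2-fold higher. On wild-type 2, 16 of 24 were over 2-fold lower than the mean of the other 2, against 4.22% of all genes. Insig1, a sterol-responsive brake on the pathway, was at log2 2.93, -0.33 and 3.73, highest on wild-type 3 and the one member not highest on wild-type 1. Lss, which closes the sterol ring, was at log2 3.41, 0.55 and 2.78, Dhcr7, the last step to cholesterol, at log2 2.83, 0.22 and 0.85, and Cyp51, the lanosterol demethylase, at log2 1.09, -1.41 and 0.18. Without wild-type 3, all 24 were higher on wild-type 1 than on wild-type 2, by a median of 1.95 log2 units, beside 48.2% of all genes.

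Lipogenesis genes were split between the arrays, with 12 of 22 highest on wild-type 1 and 8 on wild-type 2. Among all 20969 genes above the detection level, 6245 were highest on wild-type 1 and 6658 on wild-type 2. Fasn, fatty acid synthase, was at log2 1.11, -1.93 and -2.40, and Srebf1, the factor that drives it, at log2 0.57, -2.24 and -1.70. Scd1, which desaturates fatty acids, was at log2 3.78, 2.22 and 0.55, and Pnpla3 at log2 0.68, -3.08 and -2.84. Of the lipid droplet genes, Plin2 (log2 5.16, 6.69 and 5.85), Plin5 (log2 4.54, 6.11 and 5.35) and Cidec (log2 -3.83, 1.49 and -2.32) were highest on wild-type 2 and lowest on wild-type 1, while Cideb (log2 5.32, 5.61 and 3.79) was lowest on wild-type 3. Over the 22 lipogenesis genes the median difference of wild-type 1 from the other 2 arrays was 1.03 log2 units, and without wild-type 3 the median of wild-type 1 minus wild-type 2 was 0.46, with 13 of 22 higher on wild-type 1.

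Fatty acid oxidation and amino acid breakdown genes were highest on wild-type 2 more often than on the other arrays, for 19 of 28 and 18 of 32. Glucose release and glycogen genes were not, with 7 of 19 highest on wild-type 2 and 10 on wild-type 1. Of all 20969 genes above the detection level, 6658 were highest on wild-type 2 and 6245 on wild-type 1. Some glucose release genes were still far higher on wild-type 2. Pck1, the entry enzyme of gluconeogenesis, was at log2 4.73, 7.83 and 5.72, and G6pc, which releases free glucose, at log2 5.10, 7.19 and 3.42. Cpt1a, which admits fatty acids to mitochondria, was at log2 3.99, 5.44 and 2.25. Of 28 fatty acid oxidation genes, 26 were higher on wild-type 2 than the mean of the other 2 arrays, by a median of 0.48 log2 units, while over all named genes 50.2% were higher. Over 2-fold higher were 10 of the 28, against 4.71% of all genes. That mean includes wild-type 3, on which these genes were low. Without wild-type 3, 8 of the 28 were higher on wild-type 1 than on wild-type 2, with a median of -0.19 for wild-type 1 minus wild-type 2, beside 48.2% of all genes. Of 32 amino acid breakdown genes, 28 were higher on wild-type 2 than the mean of the other 2 arrays, and 7 were higher on wild-type 1 than on wild-type 2, with a median of -0.40. Among the genes high on wild-type 2 were Got1 (log2 5.05, 7.29 and 6.07), Aass (log2 4.35, 6.03 and 3.72) and Sds (log2 0.47, 2.89 and 0.51). The sulfotransferase genes Sult2a1 (log2 1.47, 3.98 and -0.55), Sult2a2 (log2 1.64, 3.09 and -1.14) and Sult2a4 (log2 0.02, 2.79 and -1.89) had the same array high. They are close copies and may share signal.

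Interferon-induced genes separated the same pair of arrays by smaller steps. Of 34 above the detection level, 32 were higher on wild-type 1 than the mean of the other 2, by a median of 0.60 log2 units, and 32 were lower on wild-type 2, beside 49.8% of all genes. Igtp, a GTPase of cell defence, was at log2 5.21, 3.95 and 3.49, and Oas3, a sensor of viral RNA, at log2 -0.34, -1.81 and -0.34. Over 2-fold higher on wild-type 1 were 3 of 34, beside 3.24% of all genes. Without wild-type 3, 33 of 34 were higher on wild-type 1 than on wild-type 2.

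Wild-type 3 was high in muscle, rapid-response and glycolysis genes and low in several hepatocyte lists. All 17 skeletal muscle genes above the detection level were over 2-fold higher there than the mean of the other 2 arrays, while over all named genes 7.44% were. On wild-type 1, 15 of the 17 were over 2-fold lower than the mean of the other 2, against 4.61% of all genes, since that mean includes wild-type 3. Among the genes with the largest ranges were Sln, a regulator of the calcium pump, at log2 -4.20, -5.19 and 3.23, Myl1, a fast myosin light chain, at log2 -2.37, -2.89 and 4.89, Tnnt3, a fast troponin, at log2 -3.80, -3.76 and 3.88, Acta1, skeletal actin, at log2 -0.67, -2.22 and 5.37, and the titin-cap gene Tcap at log2 -3.78, -3.87 and 3.01. Myh6, the atrial myosin heavy chain, was at log2 -4.08, -3.65 and 3.44, and Nppa, the atrial hormone gene, at log2 -3.30, -3.01 and 3.89. The skeletal and cardiac genes named here were thus high on wild-type 3 and near or under log2 0 on the other arrays.

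Immediate early genes, which respond to stimuli within minutes, were over 2-fold higher on wild-type 3 for 24 of 29, beside 7.44% of all genes. Atf3 was at log2 -1.44, -2.62 and 3.44, Fos at log2 -1.61, -0.75 and 2.63, and Egr1 at log2 2.55, 0.22 and 4.45. Of the chemokine and cytokine genes 12 of 19 were over 2-fold higher, among them Ccl2 (log2 -0.14, -0.37 and 3.93) and Il1b (log2 -1.65, -1.12 and 2.81). Of the genes on the glycolysis list 16 of 26 were. Among them was Bnip3, a mitochondrial protein induced by low oxygen and not a glycolytic enzyme, at log2 6.58, 5.43 and 8.07. Hk2, a hexokinase low in hepatocytes, was at log2 0.31, -0.40 and 2.11. Pgam2 (log2 -2.09, -2.39 and 1.98), on the same list, is itself a muscle isoform.

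Several hepatocyte lists were lower on wild-type 3, by unequal amounts. Of 28 fatty acid oxidation genes 25 were lower there, by a median of 0.76 log2 units, and of 25 bile acid genes 19, by a median of 0.92, while over all named genes 50.1% were lower. Over 2-fold lower were 10 of the 28 and 12 of the 25, against 7.56% of all genes. Nr1h4, the bile acid receptor FXR, was at log2 4.02, 4.22 and 1.75. Of 41 conjugation genes 28 were lower, with a median difference of -0.88. The difference was smaller for urea cycle genes, with 6 of 10 lower and a median of -0.21, and for cholesterol synthesis genes, with 13 of 24 lower and a median of -0.12. Secreted protein lists differed among themselves. Lower on wild-type 3 were 14 of 19 complement genes (median -0.47), 11 of 17 acute-phase genes (-0.56) and 14 of 19 coagulation genes (-0.23), but 11 of 31 plasma carriers (0.06). Over the 6 secreted lists 64 of 106 were lower, 20 of them over 2-fold. Erythroblast genes had a median difference of -0.04 over 37. Endothelial genes separated wild-type 1 from the other 2 arrays by a small step, with all 25 lower on wild-type 1, by a median of 0.64 log2 units, while 50.3% of all genes were lower there. Without wild-type 3, 2 of 25 were higher on wild-type 1 than on wild-type 2. Stellate cell and fibroblast genes were higher on wild-type 3 for 26 of 30, by a median of 0.74 log2 units, while 49.9% of all genes were higher there. The part of the muscle transcripts, and of the animals' sex, in these differences was not tested.

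**Figure D5:**
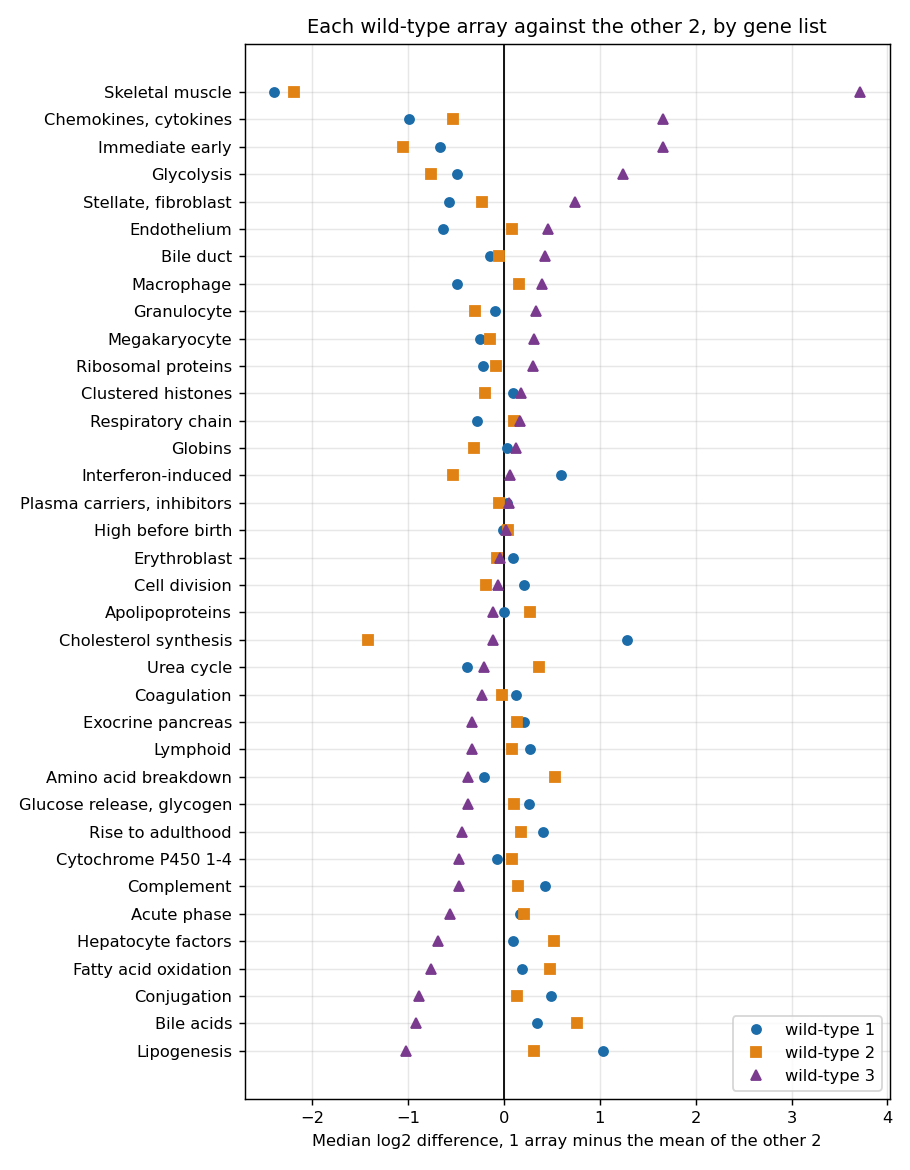
Median log2 difference of each wild-type array from the mean of the other 2, for the gene lists plotted, each with at least 10 members above the detection level, sorted by wild-type 3. Skeletal muscle (3.72) and chemokine genes (1.66) lie far right on wild-type 3 and lipogenesis far left (-1.02), cholesterol synthesis is split between wild-type 1 (1.28) and wild-type 2 (-1.42), and plasma carriers stay near 0 on every array.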

How the data were processed

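Liver RNA of 3 wild-type arrays was analysed; the 3 knockout arrays entered only through the authors' own centring, described next. The authors deposited a table of linear signal intensity, 1 value per probe and array, without flags, background or control probes, and Agilent Feature Extraction is named, with no version, in the submitters' processing notes. Of 55681 probes, 17186 had no gene name and 65 lacked a value on at least 1 wild-type array. The deposited log2 table was matched by quantile-normalized log2 intensities centred, probe by probe, on the median of the series' 6 arrays, and at least 99.99% of probes per wild-type column were equal within 0.01; its column medians were 0.005, 0.001 and 0.004 (log2). It served as an alternative for differences between arrays only.

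Each intensity was scaled to its array's 75th percentile, then put on the log2 scale (Python 3.11.15, numpy 2.4.6, pandas 2.3.3). Symbols were updated through the gene table of GRCm38.p6 for 3652 probes, were current for 27364, and were kept as given for 769 and, as accession or gene model, 6710. The scripts were tested on simulated data. No test was made, since there is 1 group. Members and the 51 gene lists, written from textbook knowledge, were chosen with earlier results of these data known. Genes named are the 40 brightest, up to 4 highest and 4 lowest of a list, up to 5 with the largest range where over 25% of a list passed 2-fold, dim members of the list of genes rising to adulthood, the markers, the sex-linked genes and the 10 genes with the largest range. Hamp2 and Sucnr1, named in addition, were chosen after their values were seen. Some genes that meet these rules are not reported here.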

Additional observations from a re-analysis of the deposited data

How the results depend on the processing

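No paired analysis was possible because only 1 group was described and no test was made. With the top list at 50 genes in place of 100, secreted proteins made up 34.0%, histones 2.0% and ribosomal proteins 0.0% of it, against 22%, 7% and 12%; at 200 genes secreted proteins made up 13.5%, histones 4.0% and globins 2.0%, against 4.0% for globins in the top 100. On wild-type 1 alone, an alternative chosen after seeing the data, secreted proteins made up 24.0%. The ribosomal median percentile was 98.8 with the median probe, and between 99.1 and 99.2 with each array left out. Undetected genes among those that rise to adulthood numbered 7 with the level at the 50th percentile and 11 with the sensory receptor level, against 2; for all named genes the counts were 10998 and 12524, against 5764. Genes past 2-fold numbered 3473 with the 50th percentile level and 8053 without a filter, against 5252, and between 1772 and 3663 with each array left out. Ribosomal genes past 2-fold numbered 1 with median scaling or the median probe and 2 without a filter, against 0, and between 0 and 1 with each array left out. Muscle genes numbered 11 with the 50th percentile level and 30 without a filter, against 17, and between 4 and 21 with each array left out; immediate early genes between 6 and 25, against 25. Without wild-type 3, a setting chosen after seeing the data, 3 signs turned: the median difference of muscle genes on wild-type 1 was 0.17 against -2.40, that of immediate early genes on wild-type 1 was 0.11 against -0.66, and that of chemokine genes on wild-type 2 was 0.028 against -0.53. With each array left out these medians ran between -4.72 and 0.17, between -1.53 and 0.11, and between -1.23 and 0.028. Counts taken over fewer or more genes, or over fewer arrays, can change for that reason alone. The cause of the changes listed here was not tested. Genes near the floor limit what can be ranked: 24.3% to 26.7% of probes per array read under a signal of 4.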

Other observations

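Of 17159 probes without a gene name and with a value on all 3 wild-type arrays, 8706 lay above the detection level on all 3, which is 50.7%, against 70.1% of 38457 named probes. They made up 30.9% of probes with a value, and 6 were among the 100 brightest of all probes, the brightest at a mean log2 signal of 9.82. Their transcripts were not identified here.

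Genes of the circadian clock also differed between the arrays, and the labels give no time of day. The clock repressor Nr1d1 was at log2 -4.31, -1.43 and 0.11 on wild-type 1, 2 and 3, the clock-driven factor Dbp at log2 -0.37, 1.03 and 3.39, and Ciart at log2 -5.11, -5.17 and -1.98, all highest on wild-type 3. Hlf, a factor related to Dbp, was at log2 1.26, 2.31 and -0.97 and thus lowest there. Of 18 clock genes above the detection level 9 were past a 2-fold range, beside 25% of all named genes, and 6 of 18 were over wild-type 1 and 2 alone, beside 8.25%.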
